A study of Homo sapiens with 2 samples.

Results

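The 986 summits of the NUSAP1 peak list on chromosome 3 are described here, out of 9043 in the whole list. They were chosen by their chromosome alone, and each is the position where a called peak was highest. The list came from chromatin immunoprecipitation with sequencing (ChIP-seq) in AsPC1, a long-established human line of pancreatic ductal adenocarcinoma cells, cultured in DMEM with serum. Chromatin was fixed with formaldehyde and sonicated. Fragments bound to a NUSAP1 antibody from Proteintech were sequenced as 1 library, and input chromatin, for which the labels name no antibody, was sequenced as a further library whose files were not analysed here. No treatment or genetic change is named for either library. The series title places the study in work on NUSAP1, the lactate dehydrogenase gene LDHA, glycolysis and metastasis. With a single precipitate there is no spread between replicates, so no test between groups was made. The intervals below cover counting error only, and sequenced fragments that went through amplification are not fully independent molecules.

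NUSAP1 is a microtubule-binding protein of the nucleolus and of the mitotic spindle, where it bundles microtubules around the chromosomes. It is best known for its part in cell division, and it can also be recovered with interphase chromatin. A ChIP-seq peak marks a place where more precipitated fragments pile up than the caller expects from the local background. The long arm of chromosome 3 carries genes that are often gained in epithelial cancers, and the short arm carries several tumour suppressor genes.

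Promoter sequences are shown for 5 protein-coding genes of chromosome 3 that ranked high by fold enrichment at a gene end. Each had a peak over the bases just before a listed RefSeq start, which for HEMK1 is not its first base. Genes without a start in the RefSeq promoter table could not enter this choice, so 5 is not a count of all such places. Fold enrichment is the caller's ratio of fragments at the summit to the local background, and q is its p adjusted over the genome. The 250 bases before each start are shown 5′ to 3′ on the strand of the gene, from RefSeq on GRCh38.p14, because the called peaks overlap them. Capitals mark matches to any of 5 short motifs on either strand: the GC box GGGCGG, the CCAAT box, the TATA box TATAAA, the ETS core CCGGAAG and the E-box CACGTG.

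SEC13, chr3:10321113-10321362, minus strand: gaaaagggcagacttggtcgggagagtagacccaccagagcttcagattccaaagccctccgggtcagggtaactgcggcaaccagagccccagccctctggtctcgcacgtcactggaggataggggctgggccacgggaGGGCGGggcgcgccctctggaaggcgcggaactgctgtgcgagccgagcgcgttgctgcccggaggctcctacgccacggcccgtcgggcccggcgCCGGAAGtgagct
GYG1, chr3:148991290-148991539, plus strand: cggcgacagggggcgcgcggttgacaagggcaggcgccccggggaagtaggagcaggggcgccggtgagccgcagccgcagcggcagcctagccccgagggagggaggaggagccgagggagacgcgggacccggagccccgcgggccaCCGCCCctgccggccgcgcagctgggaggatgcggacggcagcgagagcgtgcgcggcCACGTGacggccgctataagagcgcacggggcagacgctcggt
MRPL3, chr3:131502972-131503221, minus strand: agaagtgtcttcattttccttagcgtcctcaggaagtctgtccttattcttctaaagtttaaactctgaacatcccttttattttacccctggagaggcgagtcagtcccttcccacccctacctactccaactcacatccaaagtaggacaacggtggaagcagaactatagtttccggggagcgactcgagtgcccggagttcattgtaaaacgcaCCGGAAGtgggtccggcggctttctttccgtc
HEMK1, chr3:50569272-50569521, plus strand: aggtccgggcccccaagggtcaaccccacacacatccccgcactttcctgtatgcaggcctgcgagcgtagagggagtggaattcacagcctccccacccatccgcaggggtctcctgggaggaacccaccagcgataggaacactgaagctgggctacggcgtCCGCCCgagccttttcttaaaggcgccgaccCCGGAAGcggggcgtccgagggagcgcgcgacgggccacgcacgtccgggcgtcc
ATRIP, chr3:48446487-48446736, plus strand: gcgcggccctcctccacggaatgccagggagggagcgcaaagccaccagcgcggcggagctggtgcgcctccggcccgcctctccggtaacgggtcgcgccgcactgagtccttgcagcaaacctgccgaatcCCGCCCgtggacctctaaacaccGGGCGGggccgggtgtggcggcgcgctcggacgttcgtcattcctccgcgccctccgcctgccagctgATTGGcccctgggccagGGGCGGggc

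In 4 of these 5 windows (SEC13, GYG1, HEMK1 and ATRIP) a GGGCGG match was present, against 42.5% of 34943 RefSeq windows of the same length. The CCGGAAG motif was found in SEC13, MRPL3 and HEMK1, against 8.48% of all windows. GYG1 held the only CACGTG match of the 5 (6.32% of all windows), ATRIP the only CCAAT match (32.0%), and none held TATAAA (10.8%). The number of CG pairs was 23 in SEC13, 36 in GYG1, 12 in MRPL3, 24 in HEMK1 and 31 in ATRIP, beside a median of 11 over all windows. All 5 thus had more CG pairs than the median window. These windows were picked for a peak close to a start, and a match of letters is a description of the sequence only.

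Summits were spread over chromosome 3 in 3 stretches of different density. From position 1 to 91 Mb there were 417 summits, 4.58 per Mb (95% Poisson interval 4.15 to 5.04). From 91 to 130 Mb there were 21, or 0.538 per Mb (0.333 to 0.823). From 130 Mb to the last annotated gene at 198.2 Mb there were 548, or 8.03 per Mb (7.37 to 8.73). They are called the first, the sparse and the dense stretch below. The boundaries were placed by fitting constant rates to 1 Mb windows, so the densities of the stretches describe the list and were not tested.

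**Figure D1:**
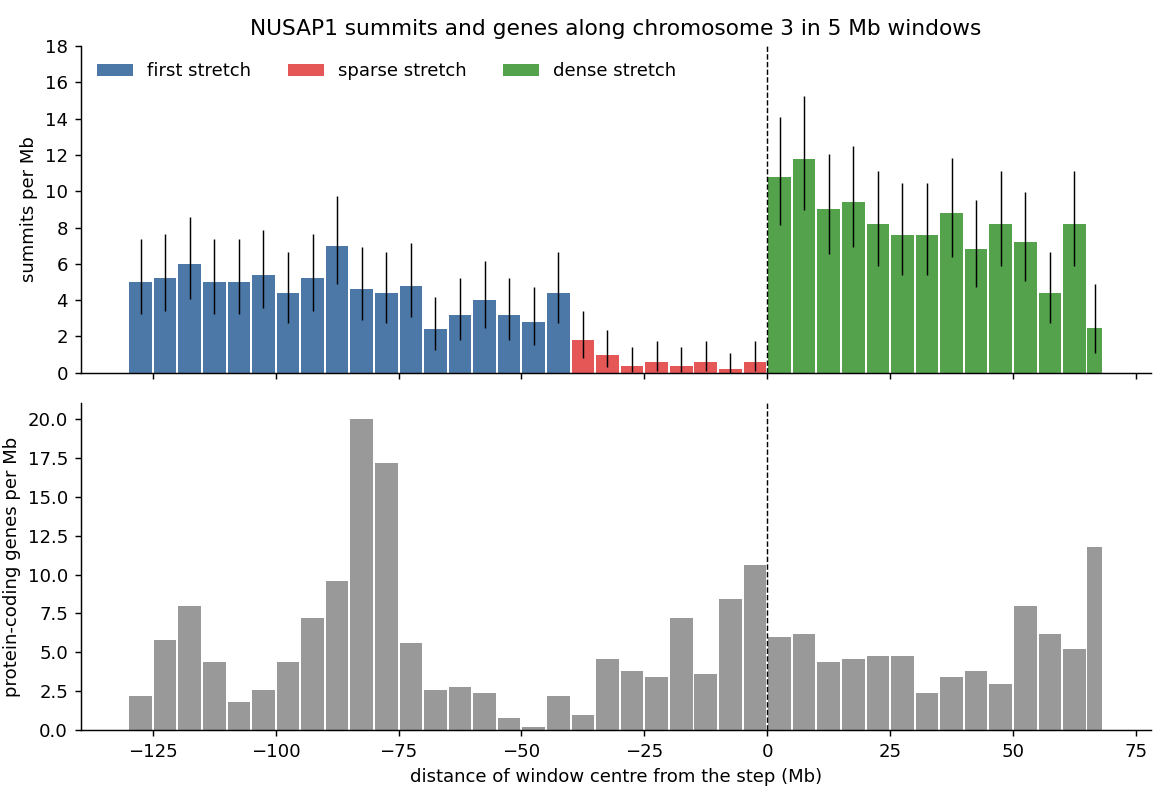
Summits per Mb (upper panel, bars with 95% Poisson intervals) and protein-coding genes per Mb (lower panel) in 5 Mb windows of chromosome 3, plotted by distance from the step (dashed line). Windows are coloured by the stretch that holds their centre; windows of the sparse stretch lie between 0.2 and 1.8 summits per Mb, and those of the dense stretch reach 11.8.

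Within the first stretch, the 12 windows of 5 Mb below 60 Mb held between 22 and 35 summits each. The highest of them, from 40 to 45 Mb, had 35 (interval 24.4 to 48.7). From 60 to 90 Mb the 6 windows held 12, 16, 20, 16, 14 and 22 summits, so they lay at or below the lower end of that range. The 8 windows from 90 to 130 Mb then held 9, 5, 2, 3, 2, 3, 1 and 3. Of the 9 between 90 and 95 Mb, 7 lay in the first Mb.

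The dense stretch opened at its highest level. The first windows above 130 Mb held 54 and 59 summits, and the 59 between 135 and 140 Mb (interval 44.9 to 76.1) were the most of any of the 596 full 5 Mb windows in the genome. From 140 to 185 Mb the windows held between 34 and 47. The window from 185 to 190 Mb had 22, the next had 41, and the last 3.2 Mb held 8.

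Summit density along the chromosome did not follow gene density. Over the 39 full windows, the rank correlation between summits and protein-coding genes was 0.13 (Pearson r 0.015), given as a description since all windows come from the same library. The most gene-rich window, from 45 to 50 Mb, had 100 protein-coding genes and 23 summits. The window just below the step had 53 genes and 3 summits, and the one just above it had 30 genes and 54 summits. Within the first stretch the rank correlation was 0.48 over 18 windows, within the sparse stretch -0.30 over 7, and within the dense stretch 0.0097 over 13.

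Around 130 Mb the change was abrupt. In the 10 Mb below there were 4 summits and in the 10 Mb above 113, a ratio of 28.3 (exact 95% interval 10.7 to 105). In 1 Mb windows from 120 Mb upward the counts were 0, 1, 0, 0, 0, 2, 0, 1, 0 and 0, followed by 8, 15, 11, 8, 12, 22, 5, 15, 3 and 14. Every window above 130 Mb in this range held more summits than any window below it. The step was singled out because of this difference, so the ratio is a description.

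**Figure D2:**
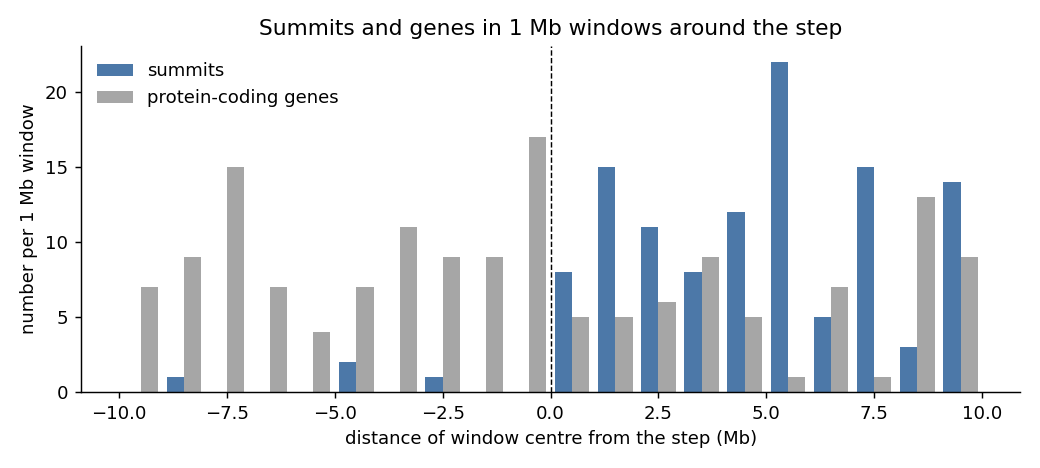
Number of summits (blue) and of protein-coding genes (grey) in 1 Mb windows over 10 Mb on each side of the step (dashed line). No window below the step holds more than 2 summits, whereas those above hold 3 to 22, and gene counts run from 4 to 17 below and from 1 to 13 above.

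The last summit below the step was at 127229656 and the first above it at 130407292, 3.18 Mb further on. A boundary placed at 130407291, directly before the first summit above, gave the highest likelihood for 2 constant rates between 120 and 140 Mb. Any boundary within the 3.18 Mb gap leaves the same summits on each side. In that gap lay 34 protein-coding genes with none inside them, among them MCM2, a subunit of the replicative helicase, and GATA2, a blood transcription factor. The gap was the fifth longest on the chromosome. The longer ones, from 3.55 to 5.66 Mb, all lay between 101470145 and 125005002 in the sparse stretch.

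The 4 summits from 120 to 130 Mb were far apart. The strongest was inside POLQ, which encodes DNA polymerase theta of the end-joining repair pathway. It lay at 121459059, where 7 fragments stood over an expected 0.712 (fold enrichment 4.67, q 0.0857). A summit inside HEG1, a receptor-like gene of endothelial junctions, lay at 125005002 with 5 fragments (fold enrichment 3.43, q 0.779). The others were outside genes: 125427889, 18.8 kb from the sorting nexin gene SNX4 (4 fragments, 2.92, q 1), and 127229656, 31.5 kb from PRR23E (6 fragments, 4.09, q 0.418). None of the 4 had a q under 0.05, and none lay within 1 kb of a gene end.

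The 5 protein-coding genes nearest to the boundary on its lower side were ALG1L2, TRH, which encodes thyrotropin-releasing hormone, TMCC1, the semaphorin receptor gene PLXND1 and the oocyte linker histone gene H1-8. None of them held a summit. On the upper side, the boundary fell inside COL6A5, a collagen VI chain gene, whose 3 summits at 130407292 to 130452904 had fold enrichments of 2.81 to 3.54. Next came COL6A6, a further collagen VI chain gene, with 1 summit (2.53), and PIK3R4, the regulatory subunit of the class III lipid kinase, with 1 (3.33). ATP2C1, the calcium and manganese pump of the Golgi, had 2 (up to 3.91), and ASTE1 had none. The boundary was placed at the end of a gap without summits, so the absence of summits in the lower 5 genes and the summit in COL6A5 follow from where it lies.

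Of the protein-coding genes centred between 120 and 130 Mb, 2 of 95 had a summit in or up to 1 kb from the body (2.11%, 95% Wilson interval 0.579 to 7.35). Between 130 and 140 Mb it was 23 of 61 (37.7%, 26.6 to 50.3). The share over all protein-coding genes of the genome was 13.6%, and on chromosome 3 it was 22.2%, or 236 of 1064. The 2 sides were thus below and above those shares. The step was chosen for its difference in summits, so these gene shares follow from that choice and are no test of it. Gene bodies covered more sequence below the step (6.90 Mb) than above it (5.39 Mb). Per Mb of gene body there were 0.290 summits below and 10.8 above, and outside the bodies 0.645 and 11.9, so the change was present in genes and between them.

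The genes above the step with the most summits were long ones. EPHB1, an ephrin receptor tyrosine kinase that guides axons and sorts cells, held 13 between 134798128 and 135251837. Their fold enrichments ran from 2.64 to 3.76, they rested on 4 to 7 fragments each, and the smallest q was 0.433. CPNE4, a calcium-dependent membrane-binding copine, held 8 (2.58 to 3.28). TMEM108, a transmembrane protein of neurons, and NMNAT3, a NAD-synthesising enzyme of mitochondria, held 4 each, with highest fold enrichments of 3.97 and 4.06. CLSTN2, the synaptic adhesion gene calsyntenin 2, starts just below 140 Mb and held 15 (2.48 to 4.23), the most of any protein-coding gene on the chromosome. The summits in EPHB1 were between 3.23 and 84.9 kb apart, so they were spread over the gene.

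Other genes above the step held 1 to 3 summits. They include NEK11, a kinase of the DNA damage checkpoint (3 summits, highest 3.93), CEP63, a centrosome assembly gene (3, highest 3.51), and DNAJC13, an endosomal chaperone gene (2, highest 4.05). PPP2R3A, a regulatory subunit of protein phosphatase 2A, held 2, and the stronger, at 136063598, had a fold enrichment of 4.37 over a background of 1.29 fragments (q 0.0857). ACP3, prostatic acid phosphatase, held 3 (highest 3.37), and SLCO2A1, a prostaglandin transporter gene, held 1 (3.41).

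Within 1 kb of a gene end there were 4 protein-coding genes between 130 and 140 Mb. At SRPRB, which encodes the beta subunit of the signal recognition particle receptor, the peak spanned 133828939 to 133829170. Its summit lay 481 bp beyond the downstream end of SRPRB and inside RAB6B, a Golgi-trafficking GTPase gene read from the other strand. It had 8 fragments over an expected 0.850 (fold enrichment 4.87, q 0.0368), and was the only one between 130 and 140 Mb with q under 0.05. At MRPL3, a protein of the large mitochondrial ribosomal subunit, the summit at 131503039 lay 68 bp before the start, within the sequence shown above (8 fragments over 1.70, 3.33, q 0.703). ACP3 and FAIM, an inhibitor of Fas-triggered cell death, followed with fold enrichments at the end of 2.64 and 2.95 and q of 1 and 0.944.

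By fold enrichment, summits were not stronger where they were denser. By fragments, the share with 7 or more was higher in the dense stretch than in the first. The median fold enrichment was 3.08 (quartiles 2.77 and 3.51) in the first stretch, 3.51 (2.92 and 4.09) in the sparse one and 3.01 (2.64 and 3.38) in the dense one. The share of summits with 7 or more fragments, a level that 12.2% of the whole list reached, was 9.35% (39 summits, Wilson interval 6.92 to 12.5), 14.3% (3 summits, 4.98 to 34.6) and 14.6% (80 summits, 11.9 to 17.8). Per Mb these were 0.429 (Poisson interval 0.305 to 0.586), 0.0769 (0.0159 to 0.225) and 1.17 (0.930 to 1.46). The order of the stretches by density was therefore the same for these better supported summits. The median peak width was 199, 201 and 211 bp.

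The background that the caller expected at the summits moved with the density. Its median was 0.864 fragments in the first stretch, 0.712 in the sparse and 1.02 in the dense one. At a fixed 5 fragments the medians were 0.878 (172 summits), 0.712 (5) and 1.01 (200), and at 6 fragments 0.864 (89), 0.712 (6) and 1.04 (142). The lowest background of the list was 0.708. Summits at that level, within 0.006, made up 23% of the first stretch, 61.9% of the sparse one (13 of 21, Wilson interval 40.9 to 79.2) and 2.92% of the dense one (16 of 548, 1.81 to 4.69). The list holds no summit with a p above 0.005, which caps the background possible at a given number of fragments, at 1.08 for 4 and 1.53 for 5 on this chromosome. The part of the background in the step was not tested.

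**Figure D3:**
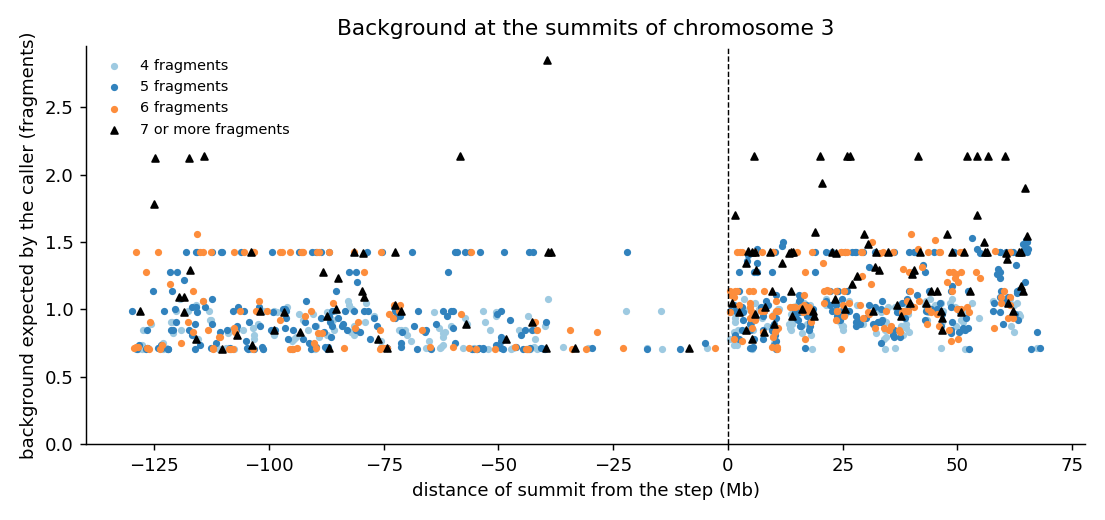
Background expected by the caller at each summit of chromosome 3 (fragments, vertical axis from 0) against distance from the step, by the number of fragments at the summit. Points of the sparse stretch lie mostly at the lowest level of 0.708 to 0.712, and those of the dense stretch have a median of 1.02.

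Neighbouring summits were closest in the dense stretch. The median distance to the next summit was 163 kb in the first stretch, 1307 kb in the sparse one and 74.1 kb in the dense one. Distances under 10 kb occurred 20, 0 and 55 times. From 130 to 140 Mb the median was 49.4 kb.

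Of protein-coding genes over 300 kb, 38 of 40 in the first stretch held at least 1 summit, 0 of 6 in the sparse one and 22 of 23 in the dense one. The 6 without a summit were EPHA6, an ephrin receptor gene, CMSS1, the transcription repressor gene ZBTB20, LSAMP, a limbic cell adhesion gene, STXBP5L and KALRN, an exchange factor of dendritic spines. They sum to 4.0 Mb, so a count of 0 allows up to 0.751 summits per Mb. In the first stretch such genes held 4.47 summits per Mb of body and in the dense one 9.79, counting overlapping genes separately. The gene body of EPHA6 is 947 kb long, and NLGN1, a postsynaptic adhesion gene of 898 kb in the dense stretch, held 11 summits.

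**Figure D4:**
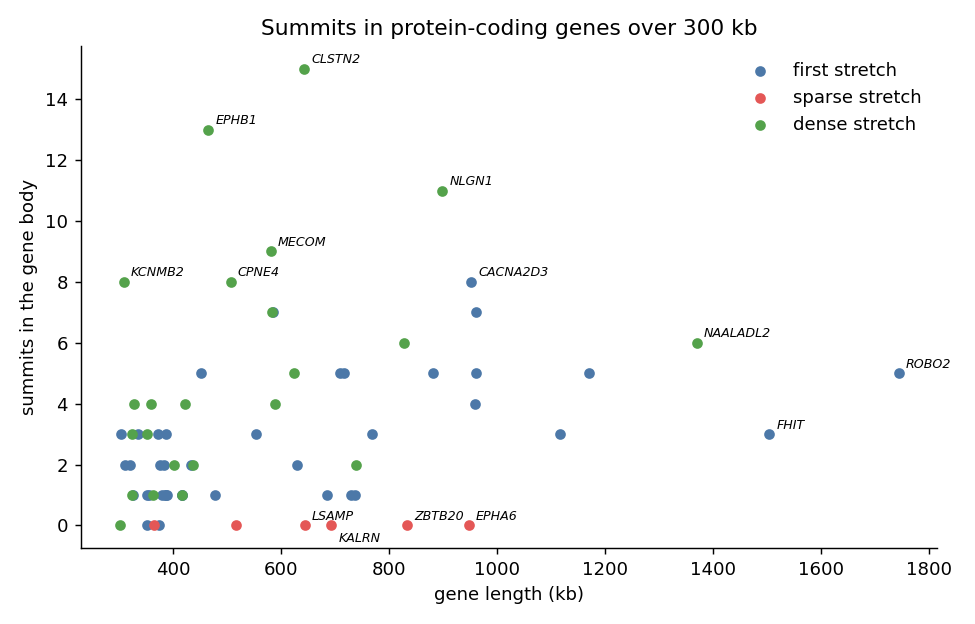
Summits in the body of each protein-coding gene over 300 kb on chromosome 3 (vertical axis) against gene length in kb, coloured by stretch. The 6 genes of the sparse stretch are at 0, and CLSTN2 with 15 and EPHB1 with 13 are highest.

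After CLSTN2, EPHB1 and NLGN1, the genes with the most summits on the chromosome were MECOM with 9, and CPNE4, KCNMB2 and CACNA2D3 with 8 each. MECOM is a zinc finger transcription factor of blood stem cells, KCNMB2 a subunit of calcium-activated potassium channels, and CACNA2D3 a calcium channel subunit. ZNF385D, a zinc finger gene, TBC1D5, a regulator of retromer trafficking, and SLC9A9, an endosomal sodium and proton exchanger, had 7 each. The order by summits was not the order by length. ROBO2, an axon guidance receptor gene of 1743 kb in the first stretch, held 5 summits, or 2.87 per Mb. EPHB1, with 465 kb in the dense stretch, held 27.9 per Mb (Poisson interval 14.9 to 47.8). EPHB1 was named for its count and lies in a denser stretch than ROBO2, so the part of length was not tested. No summit in any of the genes with the most summits, or in ROBO2, had a q under 0.05.

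Of the 986 summits, 8 had a q under 0.05 (0.811%, Wilson interval 0.412 to 1.59), beside 1.48% of the whole list. In the first stretch there were 5, in the sparse stretch 0 and in the dense stretch 3. The smallest q, 0.00449, was at 176654882 in the dense stretch, 364 kb from TBL1XR1, a transcription corepressor gene, with 9 fragments over 0.850 (fold enrichment 5.41, the highest of the chromosome). At 55660284, inside ERC2, an organiser of the presynaptic active zone, 8 fragments stood over 0.712 (5.26, q 0.0106), within 1 kb of the intronic transcript ERC2-IT1. At 194686057, 174 bp after the start of FAM43A and at an end of LOC124909474, 12 fragments stood over 1.90 (4.49, q 0.0158).

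Like the summit at 176654882, 3 others lay outside genes. They were at 23041446, 162 kb from UBE2E2 (4.98, q 0.0252), and 36695671, 16.8 kb from the kinase gene DCLK3 (4.90, q 0.0323). A further one at 90779077 was next to the centromere and 1297 kb from EPHA3 (4.54, q 0.0392). The next summit by q, just outside the limit, was at 87355758, 79.2 kb from the pituitary transcription factor gene POU1F1 (4.72, q 0.0558).

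Of all summits on the chromosome, 53 (5.38%, Wilson interval 4.13 to 6.96) were at a gene end, meaning up to 1 kb from either end of a gene that codes for a protein or a long non-coding RNA. Over the 9002 summits of all chromosomes the share was 6.93%. Inside genes and away from their ends were 529 (53.7%), and outside genes 404 (41.0%). The share at gene ends was 7.91% in the first stretch (33 summits, 5.69 to 10.9), 3.65% in the dense one (20 summits, 2.37 to 5.57) and 0 of 21 in the sparse one, which allows up to 14.3%. Within 1 kb of a RefSeq start site were 36 summits (3.65%), beside 4.37% over all chromosomes, with 18 before and 18 after the start.

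The share at gene ends was highest for the summits with the most fragments. With 7 or more fragments it was 15.6% (19 of 122, Wilson interval 10.2 to 23), and with fewer it was 3.94% (34 of 864, 2.83 to 5.45). For start sites the shares were 11.5% and 2.55%. Over all chromosomes the shares at gene ends were 12.9% and 6.13%.

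**Figure D5:**
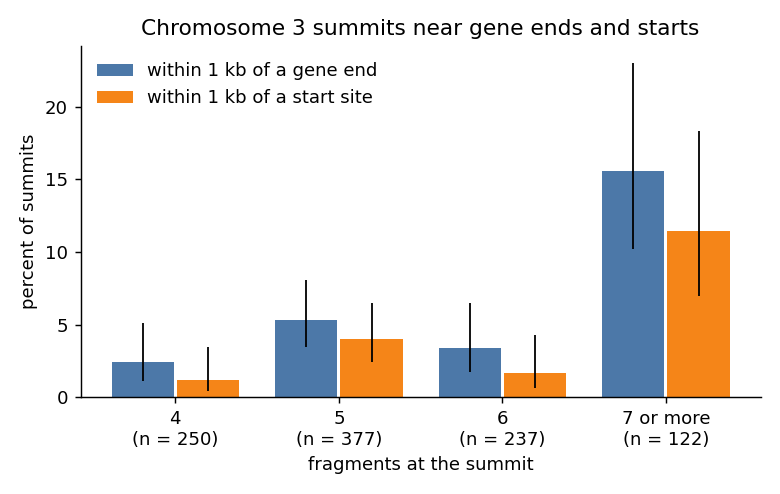
Percent of chromosome 3 summits within 1 kb of a gene end (blue) and of a RefSeq start site (orange) by number of fragments at the summit, with 95% Wilson intervals and the number of summits under each class. The bars for 7 or more fragments stand at 15.6% and 11.5%, above those for 4, 5 and 6 fragments.

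Among the 1064 protein-coding genes, 40 had a summit at an end (3.76%), beside 2.22% of all protein-coding genes in the genome. Besides those with q under 0.05, the highest fold enrichment was at SEC13, a gene of the COPII vesicle coat and the nuclear pore. Its summit at 10321150 lay 38 bp before the start and had 8 fragments over 1.09 (4.31, q 0.150). ZNF852, a zinc finger gene, and DNAH12, an axonemal dynein gene, followed with 3.99 and 3.93. GYG1, glycogenin, which primes glycogen synthesis, had a summit at 148991362, 178 bp before its start, with 9 fragments over 1.57 (3.89, q 0.297).

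Neighbouring genes shared a summit at IFRD2 and the hyaluronidase gene HYAL3 (3.75), at CCDC51 and ATRIP, the partner of the checkpoint kinase ATR (3.30), and at AMIGO3 and GMPPB, a mannose-activating enzyme gene (3.27). The bile acid hydroxylase gene CYP8B1 had 3.48, the transporter gene SLC7A14 3.47, HEMK1, a methyltransferase of translation release factors, 3.31, and the proteasome gene PSMD6 3.27. None of these had a q below 0.418. At SEC13, GYG1, MRPL3, HEMK1 and ATRIP the summit was inside the 250 bases shown above. The HEMK1 window precedes a start site at 50569522. The gene is listed from 50569180, so its summit at 50569386 lay 206 bp inside the gene body. At FAM43A the peak began after the start site, so its upstream sequence is not shown.

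Gene groups of the chromosome were read against the 22.2% of its protein-coding genes with a summit. The median length of the genes with a summit was 116 kb and of those without 28.0 kb, and the same order was seen in each of the 8 groups. Over all 236 genes with a summit, the median of each gene's highest fold enrichment was 3.28. The groups are described by their counts alone, and the stretch a gene lies in enters each count. By stretch, the share of protein-coding genes with a summit was 27.5% in the first, 3.76% in the sparse and 25.9% in the dense one.

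Of 24 tumour suppressor and commonly deleted genes of the short arm, all in the first stretch, 6 held a summit (25%, median fold enrichment 3.33). That was near the 27.5% of all protein-coding genes in that stretch. The 6 genes were ROBO1 with 5 summits (highest 4.10), RARB, the retinoic acid receptor beta (3.51), the phosphatase gene PTPRG (3.51), CTDSPL (3.15), FOXP1 (2.87) and FHIT (2.83). Of 34 genes often gained on the long arm, all in the dense stretch, 8 held one (23.5%, median 2.96). The share of all protein-coding genes in that stretch was 25.9%. MECOM had the highest fold enrichment (3.91), before the phospholipase gene PLD1 (3.39), FGF12 (3.06) and GOLIM4 (3.04).

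Axon guidance and synaptic adhesion genes had summits at 11 of 28 (39.3%, median 3.51). The highest were CLSTN2 (4.23), ROBO1 and the adhesion gene CADM2 (4.10 each) and EPHB1 (3.76). The median length in this group was 229 kb, beside 35.4 kb for all protein-coding genes of the chromosome. Of its members, 8 of 13 in the first stretch, 0 of 8 in the sparse and 3 of 7 in the dense stretch held a summit. PI3K, RAS and receptor signalling genes had 13 of 34 (38.2%, median 3.06), led by RAB6B through the summit next to SRPRB (4.87), PPP2R3A (4.37), EPHB1 and the ligand gene WNT7A (3.51).

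Among 16 genes listed under carbohydrate and pyruvate metabolism, 6 held a summit (37.5%, median 3.26). The list is wider than its name, and SLC25A20, SUCLG2 and PCCB among the 6 are not genes of glycolysis or glycogen. GBE1, the glycogen branching enzyme, had 4.50 (q 0.119) in its body, GYG1 had 3.89, GMPPB 3.27 and SLC25A20, the mitochondrial carnitine carrier, 3.24. The mitosis, spindle and replication genes, the group closest to the known role of NUSAP1, had 7 of 29 (24.1%, median 3.51), from POLQ (4.67) through NEK11 (3.93) and NEK10 (3.52) to CEP63 (3.51). None of these 7 was at a gene end.

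Ribosome and translation genes had 4 of 24 (16.7%, median 3.10), and each of the 4 had a summit at an end, beside 40 of the 236 protein-coding genes with a summit on the chromosome. By highest fold enrichment they were SRPRB (4.87), MRPL3 (3.33), the initiation factor scaffold EIF4G1 (2.87) and EIF1B (2.66). Their median length was 30.8 kb, beside 116 kb for all genes with a summit, and in a short gene more of the body is near an end. SRPRB counts only through the summit beyond its downstream end and inside RAB6B. The epithelial mucin, claudin and surface genes had 1 of 23 (4.35%), the neprilysin gene MME (3.44). Of these 23, 14 lie in the dense stretch, 6 in the sparse and 3 in the first. Among all 8 groups, the summit next to SRPRB and inside RAB6B was the only one with q under 0.05.

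Chromosomes 6 and 11 are close to chromosome 3 in number of summits, with 903 and 812. Chromosome 3 had 4.97 summits per Mb (Poisson interval 4.67 to 5.29), chromosome 6 had 5.29 (4.95 to 5.65) and chromosome 11 had 6.01 (5.61 to 6.44). The same fit placed no boundary on chromosome 6 and 1 on chromosome 11, with rates of 4.15 and 8.55 per Mb. On chromosome 3 the rates of the stretches differed by 14.9 times. Of the 573 pairs of neighbouring 5 Mb windows in the genome, the pair at 130 Mb of chromosome 3 had the largest difference, 51 summits. After adding 1 to each count its ratio was 13.8, second to a pair on chromosome 16 that went from 0 to 15. Large changes were also present elsewhere. The pair at 130 Mb of chromosome 8 went from 37 to 4 summits (ratio 7.6), and that at 100 Mb of chromosome 12 from 27 to 3 (ratio 7). Of the 22 windows with 40 or more summits, 8 lay above the step on chromosome 3, while the median of all windows was 13. The step was chosen for its size, so its rank is no test of it.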

How the data were processed

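The deposited peak list of the NUSAP1 immunoprecipitate in AsPC1 cells was the only measured file used. Per the submitters' processing notes, bcl2fastq 2.17, Trimmomatic 0.33, Bowtie 1.1.2, MACS2 2.1.0 and hg38 were used; settings are not given in the sources used here. The deposited columns hold a display score, the fold enrichment at the summit as a ratio, the caller's p and q as -log10 values, and, in an other deposited column, the summit's offset in bp. The total reads of the library were not part of the list, so its depth is unknown.

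Fragments and background at each summit were worked out as the whole number of fragments that gives the caller's p, reading the fold enrichment as (fragments + 1) over (background + 1). All 9043 summits were matched within 0.001 of -log10 p. Genes came from RefSeq (GRCh38.p14): of 3323 listed for chromosome 3, 14 on other sequences were left out. Start sites came from the RefSeq promoter table, which matched 934 of the 1064 protein-coding genes. Stretches were fitted as constant Poisson rates over 1 Mb windows, with a shortest length of 5 Mb and a penalty of 3 times the natural logarithm of the number of windows for each added stretch. The recovery of fragments and background, the boundary search and the fit of stretches were tested on simulated data. The simulated stretch rates were set close to those found here, and the matching to genes was not tested in this way.

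Members, gene lists and windows were chosen with earlier results of these data known. Genes were named by a rule: those with q under 0.05, the 20 whose end summits ranked highest by fold enrichment, those nearest to the step, those with the most summits, up to 4 members per list, and the genes nearest to the 10 summits with the smallest q. MCM2, GATA2, SNX4, PRR23E, ROBO2, FOXP1, FHIT, SUCLG2, PCCB, CMSS1, ZBTB20, LSAMP, STXBP5L, KALRN, EPHA6 and the non-coding genes fall outside the rule. They were picked with their values in view, as was the limit of 40 summits per window. One of the 8 summits with q under 0.05 is counted but not reported here. Intervals are 95% Poisson, Wilson or exact binomial. The work used scipy 1.17.1, pandas 2.3.3 and numpy 2.4.6 under Python 3.11.15, with plots by matplotlib 3.10.9. Alternatives were other limits on fragments, fold enrichment, q and background, merged peaks, other windows, distances and penalties, and start sites in place of gene ends.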

Additional observations from a re-analysis of the deposited data

How the results depend on the processing

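The ratio of summits above to below the step stayed within its interval, between 13 and 37.1, under the 8 alternatives that gave a value. With 7 or more fragments it was 16 (16 summits against 1, interval 2.49 to 671). No ratio could be given at q under 0.05, with 1 summit above and 0 below. The highest window had 17 summits per Mb with 2 Mb windows and 2 at 7 or more fragments, in place of 11.8, and the lowest had 0 in both cases, in place of 0.2. With 7 or more fragments, 2 stretches were fitted in place of 3: the boundary at 130 Mb was placed again and that at 91 Mb was not, and 67 protein-coding genes held a summit in place of 236. These limits keep fewer summits by construction. The share at gene ends was 3.55% within 500 bp, 15.9% within 5 kb, 15.6% at 7 or more fragments, 3.55% with protein-coding genes only and 3.65% for start sites, in place of 5.38%. The median background above minus below the step was 0.280, and 0.499 at 7 or more fragments, where a single summit lay below. Single summits rest on few fragments: 864 of the 986 had 4 to 6, in 1 library. No paired analysis was possible because only the precipitate has a file here. Start sites, gene bodies and the background at 5 or 6 fragments by stretch were added after seeing the data.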

Other observations

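Long non-coding RNA genes of chromosome 3 also held summits. LINC02006, a gene of 379 kb in the dense stretch, held 10, with a highest fold enrichment of 3.64 and a smallest q of 0.554. SOX2-OT, the transcript that overlaps the stem cell factor gene SOX2, held 9 (highest 3.30). KCNMB2-AS1 spans the whole of KCNMB2, and its 8 summits (highest 3.97) are the same 8 given for KCNMB2 above. In the first stretch SAMMSON, a melanoma-associated transcript, held 3 (4.06). Summits lay in the body or within 1 kb of none of the 96 microRNA genes and none of the 72 small nucleolar RNA genes of the chromosome, which allows shares of up to 3.13% and 4.17%. TERC, the RNA component of telomerase, had none either. Beside these, 22.2% of protein-coding and 13.2% of long non-coding RNA genes had a summit. The share fell with gene length, to 8.02% of protein-coding genes under 30 kb. MicroRNA and small nucleolar RNA genes are very short, so their counts of 0 are not read as an absence.

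Between 90 and 91 Mb, next to the centromere, 7 summits lay between 90033778 and 90779077, all outside genes and over 500 kb from the nearest protein-coding gene. Among them was the summit with the highest background of the chromosome, 2.85 fragments, where 11 fragments gave a fold enrichment of 3.12 (q 0.504). The background of the 7 ran from 0.708 to 2.85, and 3 of them had 7 or more fragments.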
